A study of Homo sapiens with 4 samples.

Results

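Interleukin-6 (IL-6) family cytokines signal through receptors that share the subunit gp130. The 10 genes described here carry that signal from the cell surface to the nucleus or are switched on by it. They are the receptor genes IL6R, IL6ST, LIFR and OSMR, the kinase genes JAK1, JAK2 and TYK2, the transcription factor gene STAT3, and SOCS3 and PIM1, which STAT3 activates. They were taken by gene symbol from the 56655 genes counted in 4 RNA-seq libraries. The choice of these genes was made with earlier results of these data known. All 10 were found and all 10 were among the 16417 genes that passed the filter on low counts.

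The libraries came from OVCAR5, an established human ovarian cancer cell line that the labels describe as derived from ascites and as high grade serous, used at passage 4 to 6 and grown in RPMI medium with serum. Cells carried a lentiviral non-targeting hairpin (shCtrl, 2 libraries) or a hairpin against the forkhead transcription factor gene FOXK2 (shFOXK2, 2 libraries), and both groups were puromycin-selected, stably transduced cells. The series calls the libraries of a group biological duplicates. The sources used here name no cytokine treatment of these cells, and the comparison asks how the basal RNA levels of the pathway differed between the hairpins.

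In this pathway a cytokine binds its own receptor chain, which pairs with gp130, the product of IL6ST. Kinases of the JAK family, bound to the receptor tails, then phosphorylate STAT3, which enters the nucleus and switches on genes that include its own inhibitor SOCS3. STAT3 is often phosphorylated in ovarian carcinoma, where IL-6 is abundant in ascites. RNA levels do not report that phosphorylation.

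The libraries held 14284005 to 21950873 counts. FOXK2 itself stood at 86.9 ± 9.10 CPM in shCtrl and at 67.95 ± 11.9 CPM with the FOXK2 hairpin (SD, n = 2 libraries each), where CPM is the count scaled to a common library total. Both shFOXK2 libraries were below both shCtrl libraries, but the log2 fold change of -0.36 (SE 0.25) did not pass the test (edgeR quasi-likelihood test, adjusted p = 0.257). It was nearly gone with offsets for the base composition of the transcript, at -0.059 for GC content and -0.024 for A content. By other assays, qRT-PCR and western blot, the paper reports lower FOXK2 mRNA and protein in OVCAR5 cells carrying its FOXK2 hairpins. The labelled cell type was checked with marker lists. The 7 epithelial markers summed to 4233 to 5727 CPM in each library, mostly from keratins, and within the list CDH1 and CLDN4 were lower in shFOXK2, with log2 fold changes of -4.02 and -1.02. Of 7 high-grade serous ovarian markers, WT1, ESR1 and SOX17 had at most 3 counts in any library. The others were detected in shCtrl, at 18.3 CPM for PAX8, 13.4 for MUC16, 8.69 for FOLR1 and 3.30 for MSLN, and PAX8, MUC16 and FOLR1 were lower and MSLN higher in shFOXK2. The lists of other cell types summed to 9.06 to 14.5 CPM for gastrointestinal epithelium, mostly from CDX2, 8.93 to 22.6 for blood cells, 13.7 to 20.4 for fibroblasts and 0.703 to 10.6 for endothelium. PTPRC, the pan-leukocyte marker, had 3 counts in 1 library and none in the others. The serous ovarian list summed to 42.9 and 44.9 CPM in shCtrl and to 19.7 and 21.8 in shFOXK2. The sums of every list but the epithelial one were lower in both shFOXK2 libraries than in both shCtrl libraries, and their part in the results was not tested. Single genes did not all follow the sums. In the gastrointestinal list CDX2 did not pass (log2 fold change -0.59, edgeR adjusted p = 0.138). LGALS4 was higher at low counts, with 3 and 1 in shCtrl against 15 and 16 in shFOXK2 (3.13, edgeR adjusted p = 0.00143).

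Of the 10 genes, 5 were lower in shFOXK2 and none was higher (edgeR, adjusted p under 0.05). The 5 were OSMR, JAK1, STAT3, SOCS3 and PIM1. This comparison called 48.4% of all tested genes, with 22.7% lower and 25.7% higher, so that being called was about as frequent among the 10 as elsewhere. Libraries of the groups did not overlap for 8 of the 10, against 75.4% of all tested genes. Of these 8, 5 were lower, against 36.2% of tested genes, and 3 (IL6R, IL6ST and LIFR) were higher, against 39.2%. A called fall of 1.5 or more on the log2 scale was seen for 4 of the 10 and for 9.69% of tested genes. That cutoff was set with earlier results of these data known, so the contrast is a description. It lies between the log2 fold changes of JAK1 (-1.63) and STAT3 (-0.97). The median log2 fold change was -0.65 over the 10 and 0.04 over all tested genes. In bulk RNA, fewer cells expressing a gene and less of its RNA per cell cannot be told apart. With 2 libraries a group, an exact permutation test cannot go below p = 0.333, so the p-values rest on the spread shared between genes.

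**Figure D1:**
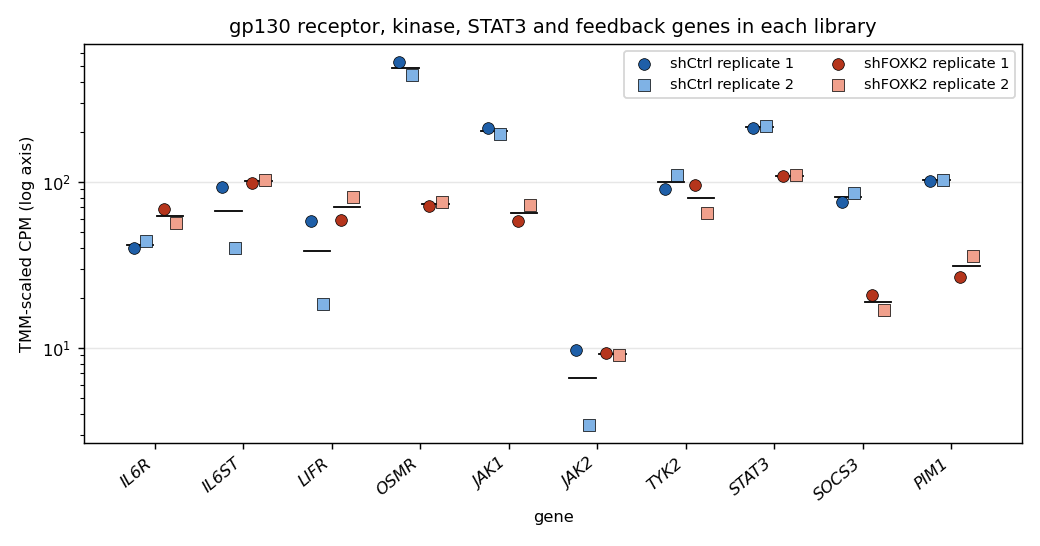
CPM of each of the 10 genes in each library on a log axis, with points for the 4 libraries coloured by group. The 2 shFOXK2 points lie below the 2 shCtrl points for OSMR, JAK1, STAT3, SOCS3 and PIM1, and shCtrl replicate 2 lies lowest of the 4 for IL6ST, LIFR and JAK2.

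The promoter of OSMR, the member with the largest fall, is shown first, as the 150 bases before the start of its canonical transcript. It comes from hg38, the build the study used, and lies at chr5:38845862-38846011 on the plus strand. No base is in capitals, because neither motif searched was in this stretch.
OSMR promoter: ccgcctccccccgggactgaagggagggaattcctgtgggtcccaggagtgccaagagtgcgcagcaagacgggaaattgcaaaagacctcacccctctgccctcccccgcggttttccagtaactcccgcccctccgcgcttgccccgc

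The motifs searched were TTCNNNGAA, the palindrome that STAT dimers bind, and the forkhead motif TGTTTAC, on both strands. The windows were of 300 bases, 250 before the start and 50 after it. Of 19206 windows of protein-coding genes, 6.46% held the STAT motif and 2.44% the forkhead motif. The OSMR window held neither, and the forkhead motif was in none of the 10 windows. These are letter matches in short windows, and the files hold no binding data for them.

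Among the receptors, OSMR fell and no other chain passed the test. OSMR (hg38 chromosome 5, 38845858 to 38945596, plus strand) encodes the oncostatin M receptor chain, which pairs with gp130 to bind oncostatin M and with IL31RA to bind interleukin-31. Its counts were 11732 and 7086 with the control hairpin and 1010 and 1379 with the FOXK2 hairpin, or 526 and 441 CPM against 71.0 and 75.8 CPM. Both shFOXK2 libraries were far below both shCtrl libraries. Mean OSMR was 484 ± 59.7 CPM in the first group and 73.4 ± 3.36 CPM in the second (SD, n = 2), a 6.59-fold drop with a log2 fold change of -2.72 (SE 0.24, edgeR adjusted p = 3.89e-06). Of all tested genes, 2.49% had a larger fall. OSMR shares 229 exon bases with RICTOR on the opposite strand. With the strand setting unknown, reads in those bases may have gone to either gene or to neither. RICTOR was higher in shFOXK2 (log2 fold change 1.71, edgeR adjusted p = 0.00165), but its shCtrl counts differed, at 260 and 90. The change was 0.86 with a GC offset and 0.89 with an A-content offset.

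LIFR (chromosome 5, 38474668 to 38608354, minus strand) lies in the same chromosomal region and encodes the chain that binds leukemia inhibitory factor and also pairs with gp130. It stood at 58.4 and 18.4 CPM in shCtrl and at 58.6 and 81.5 CPM in shFOXK2. The 2 shCtrl libraries differed from each other more than shCtrl replicate 1 differed from either shFOXK2 library. The log2 fold change was 0.86 (SE 0.41, 95% confidence interval -0.01 to 1.74, edgeR adjusted p = 0.095). Without shCtrl replicate 1 it was 1.89 (adjusted p = 3.25e-06), without shFOXK2 replicate 1 it was 1.05 (adjusted p = 0.00901), and without shCtrl replicate 2 it was 0.19 (adjusted p = 0.651). It passed with a replicate block (1.06) and with no filter (0.76) as well, but was 0.16 with a GC offset (adjusted p = 0.688) and 0.22 with that offset and the block (adjusted p = 0.455). LIFR-AS1, on the opposite strand with 629 shared exon bases, was lower in shFOXK2 (log2 fold change -1.40, edgeR adjusted p = 0.0224), a call lost with DESeq2 (adjusted p = 0.0823) and without 3 of the 4 libraries in turn.

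IL6ST (chromosome 5, 55935095 to 55995022, minus strand) encodes gp130, the subunit common to the family. It stood at 93.4 and 39.7 CPM in shCtrl and at 98.9 and 103 CPM in shFOXK2, and the log2 fold change was 0.60 (SE 0.33, 95% confidence interval -0.11 to 1.32, edgeR adjusted p = 0.151). As for LIFR, shCtrl replicate 2 alone was low. Without shCtrl replicate 1 the change was 1.31 (adjusted p = 0.000489), and without shCtrl replicate 2 it was 0.04 (adjusted p = 0.928). IL6R (chromosome 1, 154405193 to 154469450, plus strand) encodes the IL-6 binding chain, whose membrane and soluble forms a count per gene does not separate. It stood at 39.8 and 43.9 CPM in shCtrl and at 68.6 and 56.3 CPM in shFOXK2, so that both shFOXK2 libraries were higher. Its mean was 41.9 ± 2.91 CPM and then 62.4 ± 8.74 CPM (SD, n = 2), with a log2 fold change of 0.58 (SE 0.25, 95% confidence interval 0.04 to 1.12) and an adjusted p of 0.073 in edgeR, which misses the threshold. With offsets for the base composition of the transcript it passed, at 0.90 for GC content (adjusted p = 0.00327) and 0.92 for A content (adjusted p = 0.00275).

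**Figure D2:**
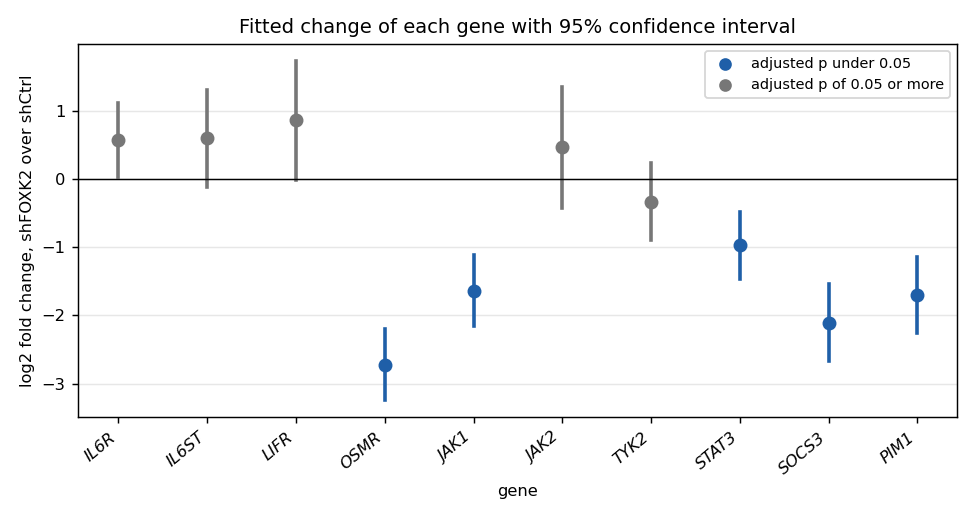
Fitted log2 fold change of shFOXK2 over shCtrl for each gene, as points with 95% confidence intervals from the edgeR fit, blue where the adjusted p was under 0.05. The intervals of OSMR, JAK1, STAT3, SOCS3 and PIM1 lie wholly below 0, with OSMR lowest at -2.72, and those of IL6ST, LIFR, JAK2 and TYK2 include 0.

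Among the ligand-binding chains, OSMR gave way to a more even mixture. Per kilobase of transcript, which allows levels of different genes to be compared, OSMR held 88.4% and 89.5% of the summed level of OSMR, IL6R and LIFR in the shCtrl libraries. In the shFOXK2 libraries it held 42.4% and 43.96%. IL6R held 6.42% and 8.54% in shCtrl against 39.3% and 31.3% in shFOXK2, and LIFR held 5.14% and 1.96% against 18.3% and 24.8%. OSMR was still the most abundant of the 3 chains in every library. The level of OSMR per kilobase was 9.20 and 18.2 times that of IL6ST in shCtrl, and 1.17 and 1.20 times in shFOXK2. These shares and ratios are descriptions and were not tested. The shares of IL6R and LIFR rise when OSMR falls, and neither gene passed the test on its own. LIFR and IL6ST were also low in shCtrl replicate 2 alone.

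Of the kinases, JAK1 fell and the calls for JAK2 and TYK2 did not pass. JAK1 (chromosome 1, 64833223 to 65067754, minus strand) encodes the kinase that gp130 signalling depends on most. It had 4724 and 3101 shCtrl counts against 824 and 1320 for shFOXK2, or 212 and 193 CPM against 57.9 and 72.5 CPM. The groups were well separated. Mean JAK1 dropped 3.10-fold, from 202 ± 13.1 CPM to 65.2 ± 10.3 (SD, n = 2), with a log2 fold change of -1.63 (SE 0.24, edgeR adjusted p = 0.000146). It shares 647 exon bases with LINC01359 on the same strand, and reads there may likewise have gone to either gene or to neither.

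TYK2 (chromosome 19, 10350533 to 10380608, minus strand), a kinase also used by interferon receptors, stood at 90.6 and 110 CPM in shCtrl and at 95.3 and 64.7 CPM in shFOXK2. The groups overlapped, and the log2 fold change was -0.33 (SE 0.26, 95% confidence interval -0.89 to 0.24, edgeR adjusted p = 0.321). JAK2 (chromosome 9, 4984390 to 5129948, plus strand), which serves hormone and cytokine receptors, was the least abundant, at 9.64 and 3.43 CPM in shCtrl and at 9.28 and 9.01 CPM in shFOXK2. Its groups overlapped too, with a log2 fold change of 0.47 (SE 0.41, 95% confidence interval -0.42 to 1.36, edgeR adjusted p = 0.366). Leaving out shCtrl replicate 1 gave 1.38 (adjusted p = 0.00888) and leaving out shCtrl replicate 2 gave -0.15 (adjusted p = 0.783).

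The balance of kinase RNA per kilobase moved from JAK1 towards TYK2. JAK1 held 64.7% and 58.95% of the summed level of the 3 kinases in shCtrl and 32.4% and 46.3% in shFOXK2. TYK2 held 33.2% and 40.3% against 63.9% and 49.5%, and JAK2 stayed between 0.758% and 4.17% in every library. JAK1 per kilobase exceeded TYK2 in both shCtrl libraries, by ratios of 1.95 and 1.46, and was below it in both shFOXK2 libraries, by ratios of 0.507 and 0.935. These shares and ratios were not tested either, and TYK2 did not pass the test on its own.

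**Figure D3:**
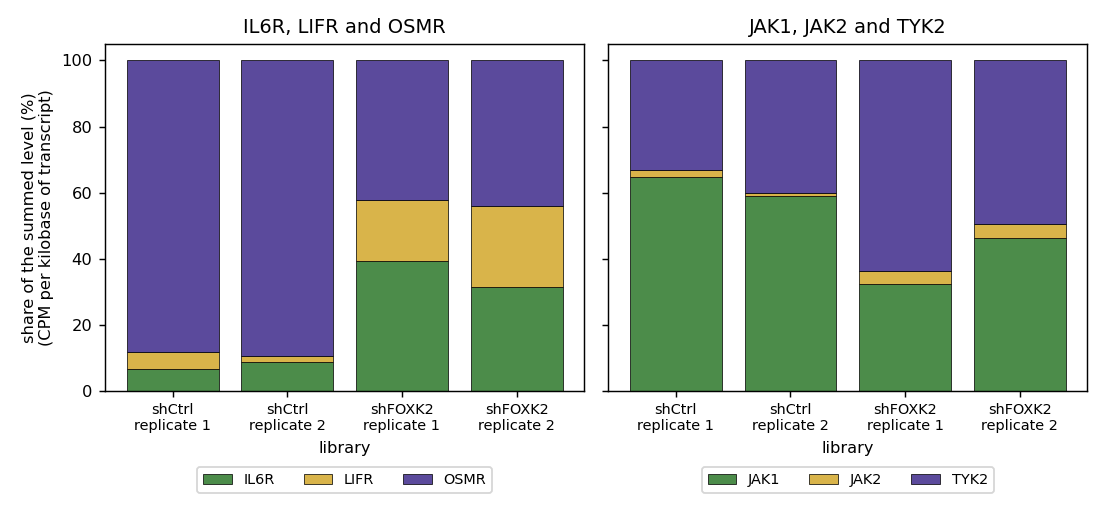
Share (%) of each gene in the summed CPM per kilobase of the ligand-binding receptors (OSMR, IL6R, LIFR) and of the kinases (JAK1, JAK2, TYK2), as stacked bars for each library. OSMR fills 88.4% and 89.5% of the receptor bars in shCtrl and 42.4% and 43.96% in shFOXK2, and TYK2 is the largest kinase share in both shFOXK2 libraries.

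STAT3, SOCS3 and PIM1 were all lower. STAT3 (chromosome 17, 42313324 to 42388540, minus strand) had 4706 and 3464 shCtrl counts against 1538 and 1992 for shFOXK2, or 211 and 216 CPM against 108 and 109 CPM. Replicates lay close together in each group. Mean STAT3 dropped 1.96-fold, from 213 ± 3.43 CPM to 109 ± 0.927 (SD, n = 2), with a log2 fold change of -0.97 (SE 0.23, 95% confidence interval -1.46 to -0.48, edgeR adjusted p = 0.00323). This was the smallest of the 5 falls, and 18.2% of all tested genes fell further.

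SOCS3 (chromosome 17, 78356778 to 78360077, minus strand) encodes a protein that binds gp130 and inhibits the JAK kinases, and is itself induced by STAT3. It had 1689 and 1369 shCtrl counts against 294 and 306 for shFOXK2, or 75.7 and 85.3 CPM against 20.7 and 16.8 CPM. Mean SOCS3 dropped 4.3-fold, from 80.5 ± 6.77 CPM to 18.7 ± 2.73 (SD, n = 2), with a log2 fold change of -2.10 (SE 0.26, edgeR adjusted p = 4.38e-05). A larger fall was seen for 4.70% of all tested genes. PIM1 (chromosome 6, 37170152 to 37175428, plus strand) encodes a serine/threonine kinase that promotes survival and is induced by STAT3 and STAT5. It had 2262 and 1644 shCtrl counts against 379 and 653 for shFOXK2, or 101 and 102 CPM against 26.6 and 35.9 CPM. Mean PIM1 dropped 3.26-fold, from 102 ± 0.721 CPM to 31.3 ± 6.53 (SD, n = 2), with a log2 fold change of -1.70 (SE 0.26, edgeR adjusted p = 0.000179).

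Relative to STAT3 itself, SOCS3 and PIM1 were lower in both shFOXK2 libraries. SOCS3 per kilobase was 0.646 and 0.711 of STAT3 in shCtrl and 0.344 and 0.276 in shFOXK2. PIM1 per kilobase was 0.875 and 0.864 of STAT3 in shCtrl and 0.449 and 0.597 in shFOXK2. These ratios are descriptions and were not tested.

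Ordered by level per kilobase in shCtrl, OSMR came first with a mean of 87.5 CPM, followed by STAT3 at 43.4, JAK1 at 39.8, PIM1 at 37.7, SOCS3 at 29.4 and TYK2 at 23.6. The last places were held by IL6ST at 7.37, IL6R at 7.26, LIFR at 3.64 and JAK2 at 0.93. In this order, the single pair of neighbours whose libraries overlapped was IL6ST and IL6R. In shFOXK2 the order opened with STAT3 at 22.1, TYK2 at 18.8, OSMR at 13.3, JAK1 at 12.8 and PIM1 at 11.6, and SOCS3 dropped to rank 8 at 6.85. With the union of all annotated exons as length, PIM1 led in shFOXK2 and JAK1 moved to rank 9, so places within this order depend on the transcript length.

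The genes for which the shCtrl replicates disagreed had transcripts rich in adenine (A). A made up 32.4% of the IL6ST transcript, 32.0% of JAK2 and 30.2% of LIFR, and the CPM in shCtrl replicate 1 was 2.35, 2.81 and 3.17 times that in replicate 2. For the other 7 genes, with 19.6% to 28.8% A, the same ratio was 0.823 to 1.19. The pattern was not particular to these genes. Over 2954 tested genes with 30% A or more the median ratio was 1.44 and the median log2 fold change 0.76, and over 11438 genes below 30% they were 0.919 and -0.21. With an offset for A content the change was -0.31 for IL6ST (adjusted p = 0.274), -0.32 for JAK2 (adjusted p = 0.440) and 0.03 for TYK2 (adjusted p = 0.904), so the direction of these 3 depends on the setting. LIFR did not reverse with that offset, at 0.59 (adjusted p = 0.160).

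**Figure D4:**
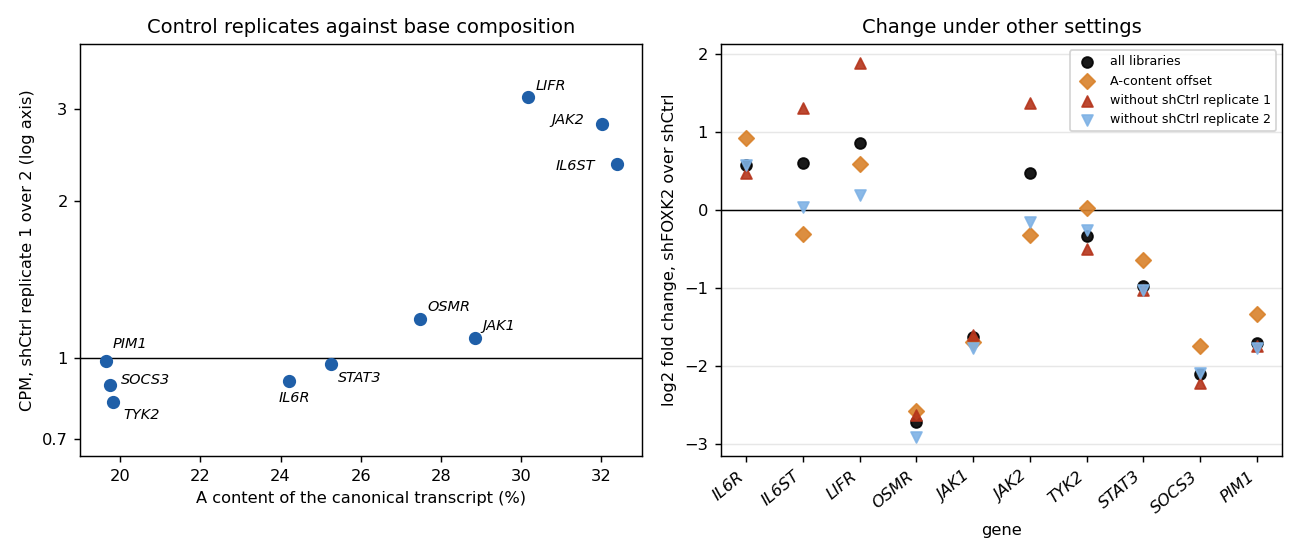
Left, CPM in shCtrl replicate 1 over replicate 2 (log axis) against the A content (%) of the canonical transcript, 1 point per gene, with IL6ST, JAK2 and LIFR apart from the rest above 2. Right, log2 fold change of shFOXK2 over shCtrl with all libraries, with an A-content offset and without each shCtrl library, where IL6ST and JAK2 cross 0 and OSMR, JAK1, STAT3, SOCS3 and PIM1 stay below it.

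A wider list of the pathway held 72 further genes, of which 67 were tested. It was chosen with earlier results of these data known, so the shares below are descriptions. In shFOXK2, 32 of these were lower, 5 were higher and 30 did not pass (edgeR), with 47.8% lower against 22.7% of all tested genes and a median log2 fold change of -0.81 against 0.04. Of 7 tested ligand genes, 3 were lower (42.9%) and 1 was higher (14.3%), against 22.7% and 25.7% of all tested genes. IL6, the cytokine that binds the IL6R chain, had 491 and 368 shCtrl counts against 6 and 0 for shFOXK2, a level at 0.845% of control by summed counts (exact 95% interval 0.309% to 1.85%, counting error only; edgeR adjusted p = 4.10e-06). EBI3, a subunit of interleukin-27, had 204 and 153 counts against 13 and 6 (log2 fold change -3.95), and CTF1, which encodes cardiotrophin-1, fell by 1.45 on the log2 scale. CLCF1, whose product signals through the ciliary neurotrophic factor receptor and LIFR, had 412 and 339 counts against 648 and 634 and rose (log2 fold change 1.02, edgeR adjusted p = 0.00685), although without shFOXK2 replicate 1 the adjusted p was 0.0661.

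The genes for the ligands that name OSMR and LIFR were also examined, OSM and LIF, after their values were seen. OSM, the oncostatin M gene, had at most 3 counts in any library and was not tested. LIF was well counted, with 1672 and 1342 shCtrl counts against 1163 and 1030 for shFOXK2, and its log2 fold change of -0.20 did not pass (edgeR adjusted p = 0.557) and turned positive with base composition offsets. Among 6 tested genes for other receptors and sheddases, 1 was lower (16.7%, against 22.7% of all tested genes). This was ADAM17, the protease that sheds IL6R and other surface proteins, at 106 ± 23.6 CPM in shCtrl and 25.3 ± 4.65 CPM in shFOXK2 (SD over 2 libraries; log2 fold change -2.07, edgeR adjusted p = 6.97e-05).

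Other JAK and STAT genes were lower or did not pass, with 4 of 7 lower and none higher (57.1% lower, against 22.7% of all tested genes). STAT5A, a mediator of cytokine and hormone signals, had 434 and 385 shCtrl counts against 20 and 31 for shFOXK2 (log2 fold change -3.79). STAT2, which acts in interferon signalling, fell by 1.71 on the log2 scale and STAT5B by 1.07 (edgeR adjusted p = 0.00374). By distance between transcript starts, STAT5B is also the nearest tested gene to STAT3 on one side, at 99.9 kb, although the STAT5A gene lies between them, next to STAT3. CAVIN1, on the other side at 34.7 kb, had a log2 fold change of -0.68 (edgeR adjusted p = 0.0288) that no longer passed with a replicate block (adjusted p = 0.0605) or with either composition offset. The neighbours of SOCS3 went in opposite directions. BIRC5 was higher (log2 fold change 0.86, edgeR adjusted p = 0.00966), a change of 0.62 without shCtrl replicate 1. PGS1 was lower (-0.74, edgeR adjusted p = 0.0358). It no longer passed with a replicate block (adjusted p = 0.0600), a GC offset (-0.42, adjusted p = 0.0923) or an A-content offset (-0.40, adjusted p = 0.105).

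Feedback genes and phosphatases were mixed, with 6 of 17 lower and 3 higher (35.3% and 17.6%, against 22.7% and 25.7% of all tested genes). SOCS1, which inhibits JAK kinases directly, had 234 and 216 shCtrl counts against 40 and 28 for shFOXK2 (log2 fold change -2.47). PIAS3, an inhibitor of STAT3 binding to DNA, fell by 1.51 on the log2 scale, and PIM2, a kinase related to PIM1, by 1.39. SOCS4 had 521 and 95 shCtrl counts against 554 and 620 for shFOXK2. Its rise (log2 fold change 1.31, edgeR adjusted p = 0.0281) rested on shCtrl replicate 2, without which it was 0.57. It also did not pass with a GC offset (0.44, adjusted p = 0.332) or an A-content offset (0.60, adjusted p = 0.205). The other genes of this list that were higher, PTPN2 and PIAS2, were named after their values were seen. PTPN2, a phosphatase that acts on JAK1 and STAT proteins, had a log2 fold change of 1.17, which was 0.37 with an A-content offset (adjusted p = 0.122). PIAS2 had one of 0.88, which was 0.53 without shCtrl replicate 2. With a GC offset PIAS2 did not pass (0.39, adjusted p = 0.137), while with an A-content offset it did (0.92, adjusted p = 0.00971). In the branch from SHP2 to RAS, 2 of 6 adaptor genes (33.3%, against 22.7% of all tested genes) were lower, SHC1 with a log2 fold change of -1.26 and GAB2 with -1.19.

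The list of genes known as STAT3 targets was mostly lower, with 16 of 24 tested genes lower and 1 higher (66.7% and 4.17%, against 22.7% and 25.7% of all tested genes), and a median log2 fold change of -1.52 against 0.04. ICAM1, an adhesion molecule for leukocytes, had 11782 and 9373 shCtrl counts against 230 and 195 for shFOXK2 (log2 fold change -5.37, edgeR adjusted p = 2.19e-07). FGA, FGB and HP, the other genes that the naming rule picked from this list, were at 3 counts or fewer in each shFOXK2 library. FGA, a fibrinogen chain, had 189 and 127 shCtrl counts against 0 and 2 for shFOXK2, or 0.766% of control by summed counts (exact 95% interval 0.0924% to 2.79%). FGB, another fibrinogen chain, had 293 and 139 against 3 and 3, or 1.68% (0.614% to 3.69%), and HP, which encodes haptoglobin, had 23 and 20 against 2 and 2, or 11.3% (2.94% to 31.0%). The gene that was higher, named after its values were seen, was the immediate early gene FOS, with 192 and 130 shCtrl counts against 395 and 992 for shFOXK2 (log2 fold change 2.30, edgeR adjusted p = 0.000136). Many of these genes also answer to other factors such as NF-kB, so the list does not isolate STAT3. The list was also chosen with earlier results of these data known, so its shares are descriptions.

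**Figure D5:**
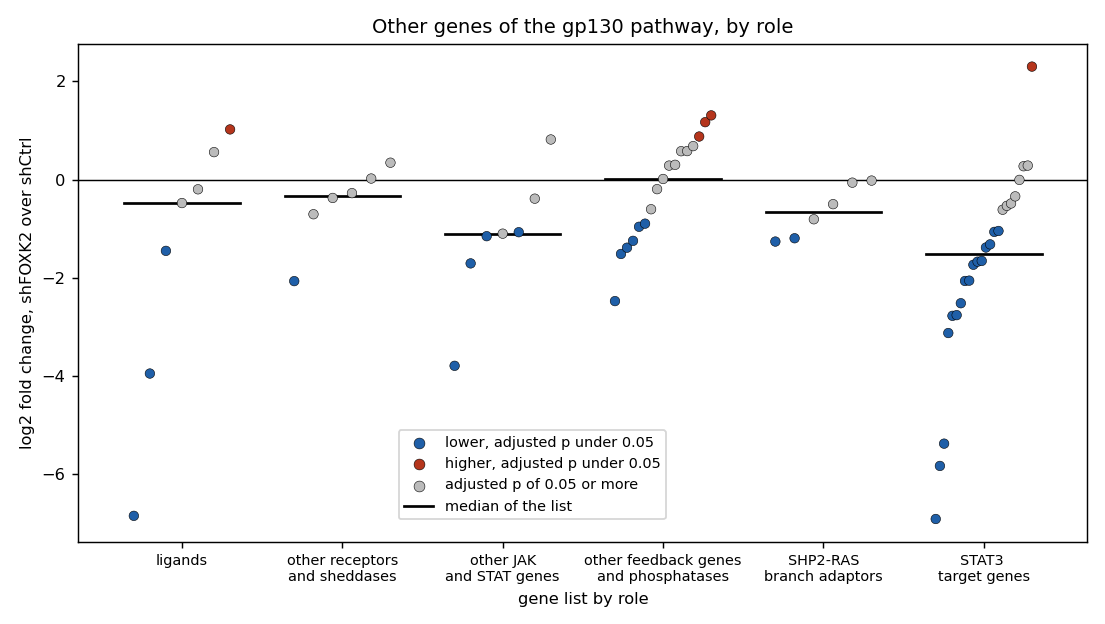
Log2 fold change of shFOXK2 over shCtrl for each tested gene of the wider pathway, in columns by role, with blue for lower and red for higher at an adjusted p under 0.05, grey for the rest and a bar at the median of each list. The STAT3 target column has the lowest median, -1.52, with FOS alone in red, and the feedback column is centred near 0, at 0.01.

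In the promoter windows described above, 7 of 26 STAT3 target genes held the STAT motif, namely BCL6, CCND1, FGA, ICAM1, IRF1, LRG1 and NNMT, against 6.46% of all windows. The list was assembled as genes known for STAT3 regulation, so this share is a property of the list. The forkhead motif was in 1 of the 26, JUNB.

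The genes whose profiles over the 4 libraries were most like those of SOCS3 and IL6ST were found by the root mean square distance of centred log2 CPM. Closest to SOCS3 was GRN, which encodes the growth factor progranulin, at a distance of 0.0182, with 847 and 964 CPM in shCtrl and 226 and 187 CPM in shFOXK2. BX088645.1 (0.0362) and PCDHGA4 (0.0424) came next, both at low counts. Closest to IL6ST were TLK1 (0.0387), PHF6 (0.0403) and RC3H2 (0.0429), which shared its low value in shCtrl replicate 2, with TLK1 at 62.8 and 26.7 CPM in shCtrl and at 69.1 and 74.0 CPM in shFOXK2. With 4 libraries such likeness describes the profiles alone.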

How the data were processed

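OVCAR5 cells were stably transduced and RNA was selected on poly(A), prepared with a NEBNext Ultra II kit and sequenced as single-end reads on an Illumina HiSeq. The authors aligned reads to hg38 with STAR 2.5.2 and deposited raw counts per gene symbol from HTSeq, without normalization. The annotation, the HTSeq version and the strand setting are not given in the sources used here.

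Sample titles gave each library its group and replicate number. After filterByExpr and TMM scaling, groups were compared in edgeR 4.0.16 (R 4.3.3) by its 2-sided quasi-likelihood F test, with Benjamini-Hochberg adjustment over 16417 genes and a threshold of 0.05. All adjusted p-values come from this test unless another fit is named. SE was the absolute log2 fold change over the square root of F, and confidence intervals are 95%. CPM is the count scaled to a common total with TMM factors. Library totals ran from 14284005 to 21950873, and 3 counts, taken as the floor, equalled 0.134 to 0.211 CPM. Exact intervals for ratios of summed counts and the floor cover counting error only, since the reads carry no molecular identifiers. The code was tested on simulated data. With counts drawn at a spread fitted as a trend over genes, the share of false calls was below the 0.05 threshold. With the spread estimated gene by gene, a harder case, that share was above it.

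The members, gene lists and rules were chosen with earlier results of these data known. Genes named were the 10 members and FOXK2, at most 4 per role list with the largest called change, and 3 genes most like SOCS3 and IL6ST. The rule also took the nearest tested gene on each side of a member within 500 kb. Of these neighbours, those of STAT3 and SOCS3 are described, with RICTOR near OSMR and LIFR-AS1 near LIFR. The rest are left out. Any other gene was chosen with its values in view. Lengths, positions and base composition came from GENCODE v44 (canonical transcript, hg38); 36877 of 56655 symbols (65.1%) and 14392 tested genes (87.7%) matched. Promoter windows were read from hg38. One gene of the wider list and one promoter are not reported here.

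Alternatives were DESeq2 1.42.0, DESeq2 size factors, library size alone, no filter, at least 10 counts in every library, a replicate block, lowess offsets (span 0.2) on A content or on GC content (the latter also with the block), and leaving out each library. A crossed block was added after seeing the data.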

Additional observations from a re-analysis of the deposited data

How the results depend on the processing

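OSMR, JAK1, STAT3, SOCS3 and PIM1 were lower and past the threshold under all 9 alternatives and without each library in turn; STAT3, the smallest, ran from -1.07 to -0.64 under the alternatives. Without one library at a time, their log2 fold changes ran from -2.92 to -2.62 (OSMR), -1.84 to -1.51 (JAK1), -1.03 to -0.99 (STAT3), -2.28 to -1.99 (SOCS3) and -1.97 to -1.53 (PIM1). The same ranges were 0.40 to 0.68 for IL6R, 0.040 to 1.31 for IL6ST, 0.19 to 1.89 for LIFR, -0.15 to 1.38 for JAK2, -0.66 to -0.11 for TYK2 and -0.57 to -0.22 for FOXK2. Over the alternatives with all libraries, the crossed block included, the number of the 10 genes called ran from 5 to 8. That of the other pathway genes ran from 32 to 42, against 37 in the main fit. That of all genes ran from 6008 to 9207, against 7940, and the number tested differed with the filter.

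With a GC offset, alone and with a replicate block, IL6R passed at 0.90 and 0.90, IL6ST reversed to -0.21 and -0.18, and JAK2 to -0.31 and -0.24. With an A-content offset IL6R passed at 0.92, and IL6ST, JAK2 and TYK2 reversed to -0.31, -0.32 and 0.030. LIFR, at 0.16 with the GC offset, passed at 0.76 with no filter and 1.06 with the replicate block, which changed no other call among the 10. Among genes that are not members, LIF reversed with the GC offset (0.11, and 0.10 with the replicate block), the A-content offset (0.15) and without shFOXK2 replicate 2 (-0.51 to 0.013 over the libraries left out), PHF6 with the GC offset (-0.23, and -0.21 with the block) and RC3H2 without shCtrl replicate 2 (-0.0065 to 1.34 over the libraries left out). The cause was not tested. These settings moved the median of all genes by 0.13 (GC), 0.12 (GC with the block) and 0.17 (A), and no filter by -0.10. Deviations of same-numbered libraries had a correlation of -0.103, and no label says what a number shares. A block with crossed numbers, chosen after seeing the data, called 8 of the 10 genes, the upper end of the range above. As the count over all genes also moved with the setting, this is not read as a result about the 10.

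OSM, at 3 counts or fewer in each library, could not be compared at this depth.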
